A study of Caenorhabditis elegans with 4 samples.

Results

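NURF-1 peaks on the X chromosome of Caenorhabditis elegans are described here. They were chosen by chromosome alone, as all peaks of the authors' whole-series list that lie on X, and they number 1541 of the 11796 peaks in that list. The list holds a further 10240 peaks on the 5 autosomes and 15 on mitochondrial DNA. X thus carried 13.1% of the 11781 nuclear peaks on 17.7% of the nuclear sequence. In the study, NURF-1 was immunoprecipitated from chromatin (ChIP) in 2 replicates, each with a library of its input DNA, all from whole L3 larvae of strain N2, genotype wild type, raised at 20 °C as a population of males and hermaphrodites. The antibody is an affinity-purified rabbit polyclonal raised against a stretch of 100 residues of the protein, so forms of NURF-1 without that stretch would not be seen. The labels do not state that the replicates came from separate cultures, and the spread between them may be technical.

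NURF-1 is the worm counterpart of BPTF, the largest subunit of the nucleosome remodelling factor NURF, in which an ISWI-type ATPase slides nucleosomes. BPTF proteins carry a PHD finger that binds histone H3 trimethylated at lysine 4, a mark of active promoters, and in worms nurf-1 and the ATPase gene isw-1 act in vulval development. The X chromosome is present in a pair in hermaphrodites and as a single copy in males. In somatic cells of hermaphrodites a condensin-based dosage compensation complex binds both X chromosomes and lowers their transcription, and in the germ line most X genes are kept silent. Worm chromosomes are divided into a central domain and 2 arms with more recombination, and on autosomes many housekeeping genes lie in the centre.

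The authors' peak caller gave every peak its bounds and a score. The scale of the score is not stated, and a score is read here only against other scores of the same list. Coordinates are on WormBase WS220, on which the last X peak ended at base 17718866. The X peaks numbered 498 of the 4856 peaks in the replicate 1 list and 1570 of the 11771 in the replicate 2 list. The replicate 1 list was thus the smaller one over the whole genome. The depth of the libraries is unknown, because the lists hold no read counts, and no input value was analysed here. Gene names are not given, because no annotation of WS220 was used, and for want of that genome no peak sequence is printed.

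Of the 10 best-scored X peaks, 7 lay in the left arm, which held 34.1% of all X peaks. A larger set was spread more evenly. Of the X peaks among the best-scored 10% of nuclear peaks, 30 lay in the left arm, 26 in the centre and 30 in the right arm. The highest whole-series score on X, 311.33, belonged to the peak at X, 5840764 to 5841876, which is 1113 bp wide and scored 208.52 in replicate 1 and 344.78 in replicate 2. It ranked 72 among all nuclear peaks of the whole-series list. The peak at X, 1446500 to 1447526 had 310.03 in the whole-series list, 51.20 in replicate 1 and 319.92 in replicate 2. That at X, 2242292 to 2243412 had 308.28 in the whole-series list, 332.36 in replicate 2 and 230.97 in replicate 1, where no X peak scored higher. These 3 were the only X peaks among the 100 best-scored nuclear peaks of the whole-series list.

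The peak at X, 7822600 to 7824208 was the best of the centre, with 300.65 in the whole-series list, 96.08 in replicate 1 and 324.83 in replicate 2. The peak at X, 2401820 to 2402478 in the left arm had 299.03 in the whole-series list, 27.52 in replicate 1 and 348.33 in replicate 2, where no X peak scored higher. The replicate lists placed this peak differently, at rank 1014 of the nuclear peaks of replicate 1 and at rank 21 of those of replicate 2. The other 5 of the 10 best-scored X peaks began at bases 11464180, 11605218, 5952958, 4523385 and 4711804, with whole-series scores from 257.68 to 297.35. All 10 were found in both replicates, 3 lay in the centre and 0 in the right arm, and they were 659 to 1692 bp wide. That is near the background for high scores. Among the best-scored 10% of nuclear peaks, 94.2% on X and 98.4% on autosomes overlapped replicate 1, and 100% of both overlapped replicate 2. The best peak of the right arm followed at position 11 of X, at X, 16929283 to 16934034, with a whole-series score of 253.10.

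X had the fewest NURF-1 peaks per Mb in the whole-series list, but was close to chromosome V. It carried 87.0 peaks per Mb, against 88.2 on V, 115.9 on II, 117.6 on IV, 155.6 on I and 161.1 on III. The 5 autosomes averaged 127.7 ± 30.4 (SD), and X stood at 0.68 times their mean. An exact permutation test over the 6 chromosomes gave a two-sided p = 0.5. With 1 chromosome against 5 this exact test cannot go below p = 0.167, so it cannot pass 0.05, and the comparisons of X with autosomes below are descriptions of how X stands beside the range of the autosomes. Of the 7 comparisons planned, adjusted p-values ranged from 0.583 to 1 (exact permutation test, Benjamini-Hochberg).

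**Figure D1:**
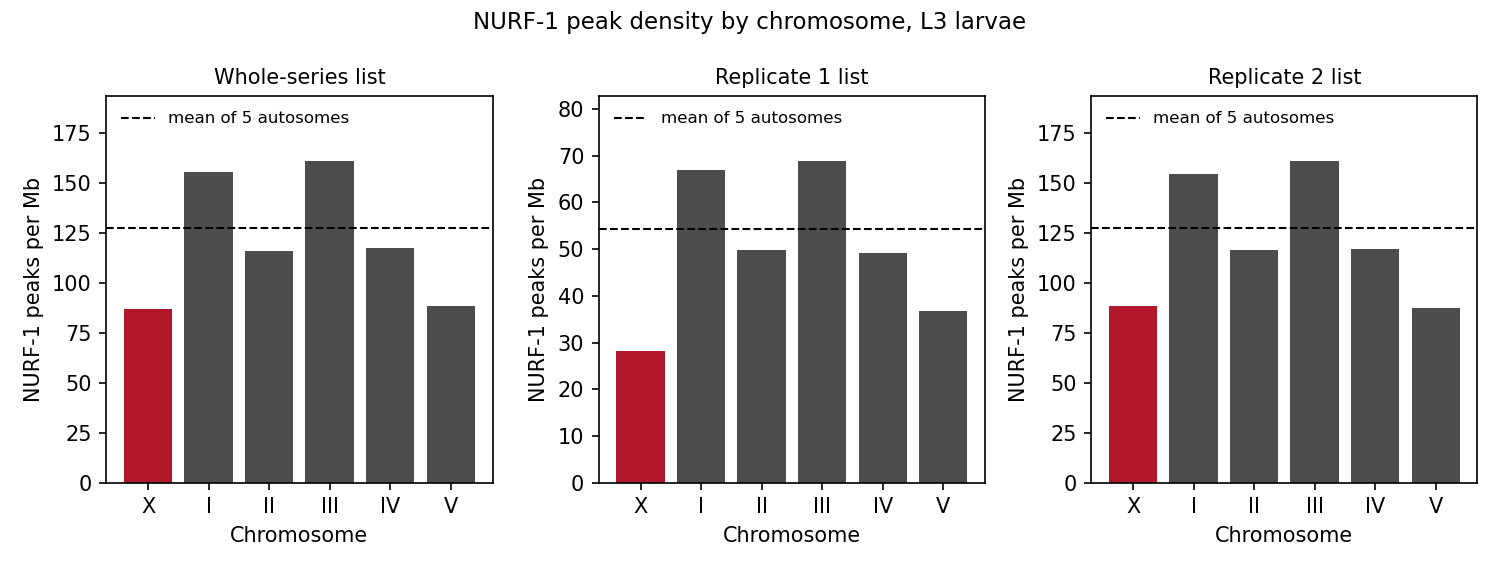
Peaks per Mb (y axis) on X (red) and on each autosome (grey) in the whole-series list and in the list of each ChIP replicate; dashed lines mark the mean of 5 autosomes. X stands below every autosome in the whole-series and replicate 1 lists, and at 88.6 per Mb just above V in replicate 2.

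The replicate lists differed in how far X lay below the autosomes. Replicate 1 had 28.1 peaks per Mb on X against 54.4 ± 13.5 on the autosomes (SD, n = 5), a ratio of 0.52. Replicate 2 had 88.6 on X against 127.2 ± 30.3, a ratio of 0.70. The mean ratio was 0.61 ± 0.13 (SD, n = 2 replicates). X peaks of the whole-series list covered 660.8 kb, or 3.73% of X, against 6.01 ± 1.55% of the autosomes, a ratio of 0.62. The widest X peak measured 4781 bp and the narrowest 146 bp, which was also the narrowest width on every autosome.

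The median score of X peaks was below that of every autosome in all 3 lists. In the whole-series list the median score was 14.0 on X, against medians of 17.0 to 18.8 on the 5 autosomes, a ratio of 0.78 to their mean. The upper end of the distribution lay further apart, with a 90th percentile of 106.2 on X against 140.4 to 167.4 on autosomes. In replicate 1 the median was 7.73 on X against 9.97 to 11.7 on autosomes, a ratio of 0.72. In replicate 2 it was 13.2 on X against 17.0 to 18.3 on autosomes, a ratio of 0.75. The exact permutation test gave p = 0.167 in each of the 3 lists, the smallest possible.

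The shortage of X peaks was deepest among the best-scored ones. Peaks of each list were put into 10 groups of about equal size by score. In the lowest group of the whole-series list, 16.1% of 1252 peaks were on X (95% Wilson interval 14.2 to 18.3), and in the best group 7.29% of 1179 (5.94 to 8.92). In replicate 1 the share on X was 12% in the lowest group (9.27 to 15.5) and 3.71% in the best (2.36 to 5.79). In replicate 2 it was 16.9% (14.8 to 19.1) and 7.82% (6.42 to 9.50). In the whole-series list the lower share was at the upper end of the scores: groups 1 to 8 had X shares of 12.2 to 16.1%, with no steady trend, and group 9 had 10.2%. In density, X peaks of the best group stood at 0.37 times the pooled autosomes in the whole-series list, 0.18 times in replicate 1 and 0.40 times in replicate 2.

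**Figure D2:**
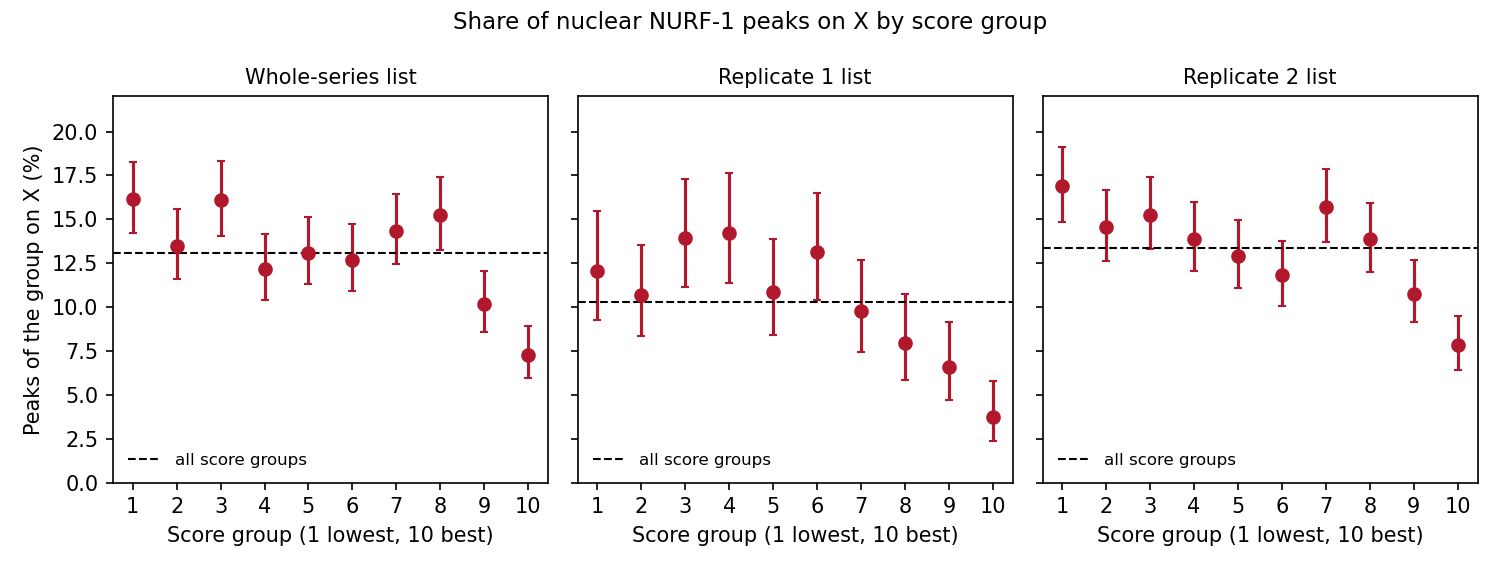
Share of the nuclear peaks of each score group that lie on X (y axis, percent, with 95% Wilson intervals) against score group (x axis, 1 the lowest and 10 the best) for the 3 lists; the dashed line is the share of X over all groups. In each list group 10 has the lowest share, 7.29% in the whole-series list.

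Over all scores of the whole-series list, the median width of X peaks lay inside the autosomal range, and the wide end lay below it. The median was 342 bp on X, against 329.5 to 361.5 bp on autosomes (exact permutation test, p = 1). In replicate 2 the median also lay inside, at 345 bp on X against 337 to 360 bp. In replicate 1 it lay below every autosome, at 235 bp on X against 257 to 279 bp. In the whole-series list the 90th percentile was 736 bp on X, against 847.0 to 927.1 bp on autosomes. Peaks of 1200 bp or more made up 34 of the X peaks (2.21%) and 3.47 to 4.18% of the peaks of each autosome. Wider peaks had higher scores on X (Spearman's rho 0.79 over 1541 peaks), as on autosomes (0.80 to 0.82); peaks share their library and are not independent. At like score in the whole-series list, the direction depended on the score. In groups 2 to 5 the median width on X was above every autosome, with 209 bp on X against 185.5 to 205 bp on autosomes in group 2 and 347 bp on X against 284 to 292 bp in group 5. In groups 9 and 10 it was below every autosome. The values were 629 bp on X against 675 to 736.5 bp in group 9, and 743 bp on X against 843 to 919 bp in group 10. Replicate 2 had the same directions in these groups, and replicate 1 did so only in group 10. In replicate 1, X was below every autosome in groups 2, 4, 5, 6, 8 and 10. It was above every autosome in group 9 (410.5 bp on X against 353 to 383.5 bp).

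A smaller share of X peaks than of autosomal peaks overlapped the replicate 1 list. Of the 1541, 442 overlapped a replicate 1 peak by 1 bp or more (28.7%, 95% Wilson interval 26.5 to 31.0), against 36.0% of all nuclear peaks and 35.3 to 38.7% on the 5 autosomes (exact permutation test, p = 0.167). Overlap with replicate 2 was seen for 1455 X peaks (94.4%, 93.2 to 95.5), against 94.5% of all nuclear peaks and 94.0 to 95.5% on autosomes (exact permutation test, p = 0.833). Intervals cover counting error only. The way the whole-series list was made from the replicates is not stated, so overlap with a replicate list is not independent recurrence. By these shares the whole-series list follows replicate 2 on X as elsewhere. Of the 1541 X peaks, 46 had bounds identical to those of a peak in replicate 2, and 0 to those of one in replicate 1. Identical bounds were not counted on the autosomes. Set against each other, the replicate lists differed by direction. Of the replicate 2 peaks on X, 421 of 1570 overlapped one of replicate 1 (26.8%), against 34.3 to 37.1% on autosomes. Of the replicate 1 peaks on X, 431 of 498 overlapped one of replicate 2 (86.5%), inside the autosomal range of 86.1 to 92.9%, with V below X.

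At like score the gap was smaller, and X still stood below every autosome. The shares of the 10 score groups were averaged, so that each group counts equally on every chromosome. Scores within a group were not matched. The share found in replicate 1 was then 32.9% on X and 36.4 ± 0.36% on autosomes (SD, n = 5, range 36.0 to 36.9). The difference was -3.48 percentage points at like score, and -8.31 without regard to score. The groups differed in size of the gap. In group 9, 90 of 120 X peaks were found (75%, 66.6 to 81.9), against 88.9 ± 1.04% on autosomes (range 87.7 to 89.7). In group 10, 81 of 86 were (94.2%, 87.1 to 97.5), against 98.5 ± 1.17%. In group 7, 39.4% were (32.4 to 46.9), against 47.4 ± 4.14% (range 42.9 to 52.0). In groups 1 to 6 the X share lay within 3 percentage points of the autosomal mean, and the interval of X took in that mean in each of them.

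**Figure D3:**
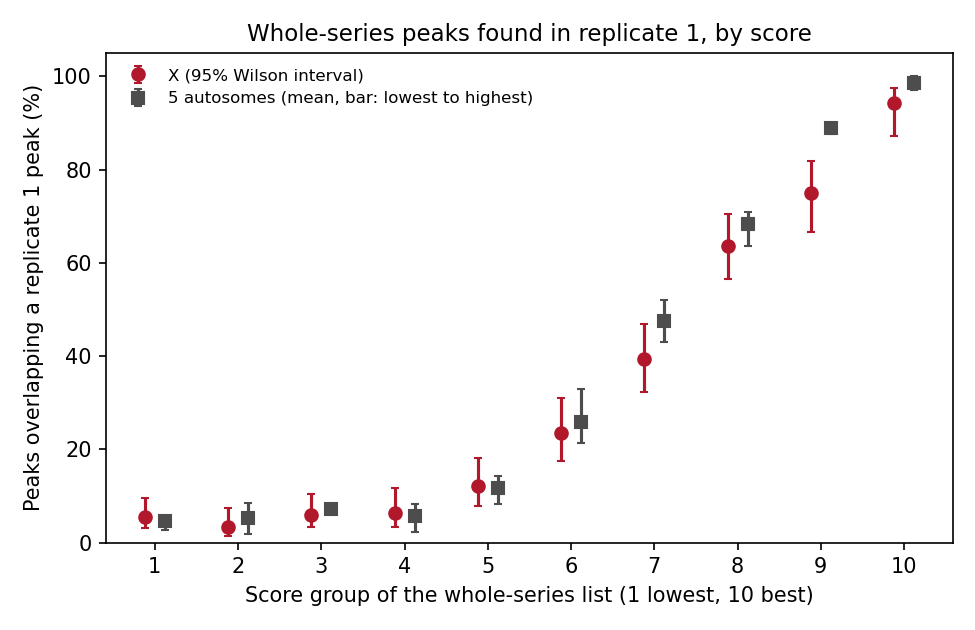
Share of whole-series peaks that overlap a replicate 1 peak (y axis, percent) by score group (x axis) on X, with 95% Wilson intervals, and on autosomes, as the mean of 5 with a bar from the lowest to the highest. The series run together in groups 1 to 6, and X is at 75% in group 9, against 88.9% on autosomes.

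By overlap, the X peaks fell into 4 classes. Both replicate lists were overlapped by 411 X peaks (26.7%), against 34.3% of all nuclear peaks and 33.3 to 36.8% on autosomes. Replicate 2 alone was overlapped by 1044 (67.7%), against 60.2% of all nuclear peaks and 57.1 to 60.8% on autosomes. Replicate 1 alone was overlapped by 31 (2.01%, 1.42 to 2.84), against 1.62% of all nuclear peaks and 1.1 to 2.0% on autosomes. A further 55 overlapped neither (3.57%), against 3.84% of all nuclear peaks.

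The X peaks in both replicates were the strong and wide ones, as on autosomes, but weaker than there. Their median whole-series score was 73.1 on X, against 88.2 to 104.9 on autosomes, and their median width 633 bp, against 658.5 to 722 bp. X carried 23.2 such peaks per Mb, 0.51 times the autosomal mean of 45.5 ± 12.3 (SD, n = 5; range 29.3 to 58.4). X peaks in replicate 2 alone had a median score of 9.24 on X, against 9.47 to 10.1 on autosomes, and a median width of 282 bp, against 257 to 270 bp. The 55 in neither list scored 1.90 to 8.18. The best of these lay at X, 13480980 to 13481149 (8.18), X, 9637739 to 9637920 (8.05) and X, 258995 to 259143 (6.95).

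The order of peaks by score was less alike between the replicates on X. Over the 411 X peaks in both lists, the best overlapping replicate 1 score and the best overlapping replicate 2 score had a Spearman's rho of 0.45 and a Pearson's r of 0.47. On the 5 autosomes the rho was 0.63 to 0.74 and the r 0.62 to 0.71, over 614 to 864 peaks each. Points within a chromosome share their libraries. The shared X peaks scored lower in both lists: the median was 9.02 on X against 12.4 to 14.1 on autosomes in replicate 1, and 72.0 on X against 82.8 to 100.7 on autosomes in replicate 2. The part of these lower scores in the lower correlation was not tested.

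Strong X peaks absent from replicate 1 were present in each domain. The best-scored X peak of replicate 2 alone was X, 7232168 to 7232927 in the centre, with a whole-series score of 219.20 and 251.90 in replicate 2. It was followed by X, 4971019 to 4972478 in the left arm, 1460 bp wide, with a whole-series score of 187.73 and 194.78 in replicate 2. The third was X, 13917312 to 13917709 in the right arm, with a whole-series score of 185.90 and 196.81 in replicate 2. They ranked 34, 53 and 57 among the X peaks of the whole-series list. Such peaks were also present on autosomes, but were more frequent on X. On each autosome the best peak of replicate 2 alone had a whole-series score from 143.22 (II) to 223.75 (V). The share found in replicate 1 was lower on X in the upper score groups. It was 75% on X against a mean of 88.9% on autosomes in group 9, and 94.2% against 98.5% in group 10.

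The X peaks of replicate 1 alone had low whole-series scores of 2.45 to 20.79, with a median of 6.01. The best was X, 14908088 to 14908670 (20.79, and 11.68 in replicate 1), followed by X, 9188252 to 9188667 (13.24, and 16.88 in replicate 1) and X, 9185946 to 9186402 (13.10, and 24.91 in replicate 1). Of the 31, 23 had another whole-series peak within 1 kb (74.2%), close to the 73.8% of such peaks on autosomes. Those on X with gaps of 5 kb or less were grouped, a choice made after the values were seen and not repeated on the autosomes. The 31 fell into 19 groups, where 14 of the 31 stood alone and 13 lay in 3 groups. The largest held 6 peaks over 3706 bp at X, 9184962 to 9188667, where replicate 1 had 6 peaks scoring 8.65 to 24.91. Another held 4 peaks at X, 4026134 to 4027981, and the third 3 peaks at X, 11886637 to 11888108. That these peaks overlap no replicate 2 peak follows from the definition of the class.

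The centre of X had a lower peak density than its arms, by more among peaks found in both replicates than among all peaks. The centre (midpoints from 6.137 to 12.48 Mb) had 515 peaks, the left arm 525 and the right arm 501. That is 81.2 per Mb in the centre (exact 95% Poisson interval 74.3 to 88.5), 85.5 in the left arm (78.4 to 93.2) and 95.6 in the right arm (87.4 to 104.4). The centre was at 0.90 times the density of both arms together, and the interval of the centre overlaps those of both arms. Of the peaks in both replicates, the centre had 110, or 17.3 per Mb (14.3 to 20.9), against 146 in the left arm, or 23.8 per Mb (20.1 to 28.0), and 155 in the right arm, or 29.6 per Mb (25.1 to 34.6). There the centre was at 0.66 times the arms, and its interval overlaps that of the left arm and not that of the right arm.

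**Figure D4:**
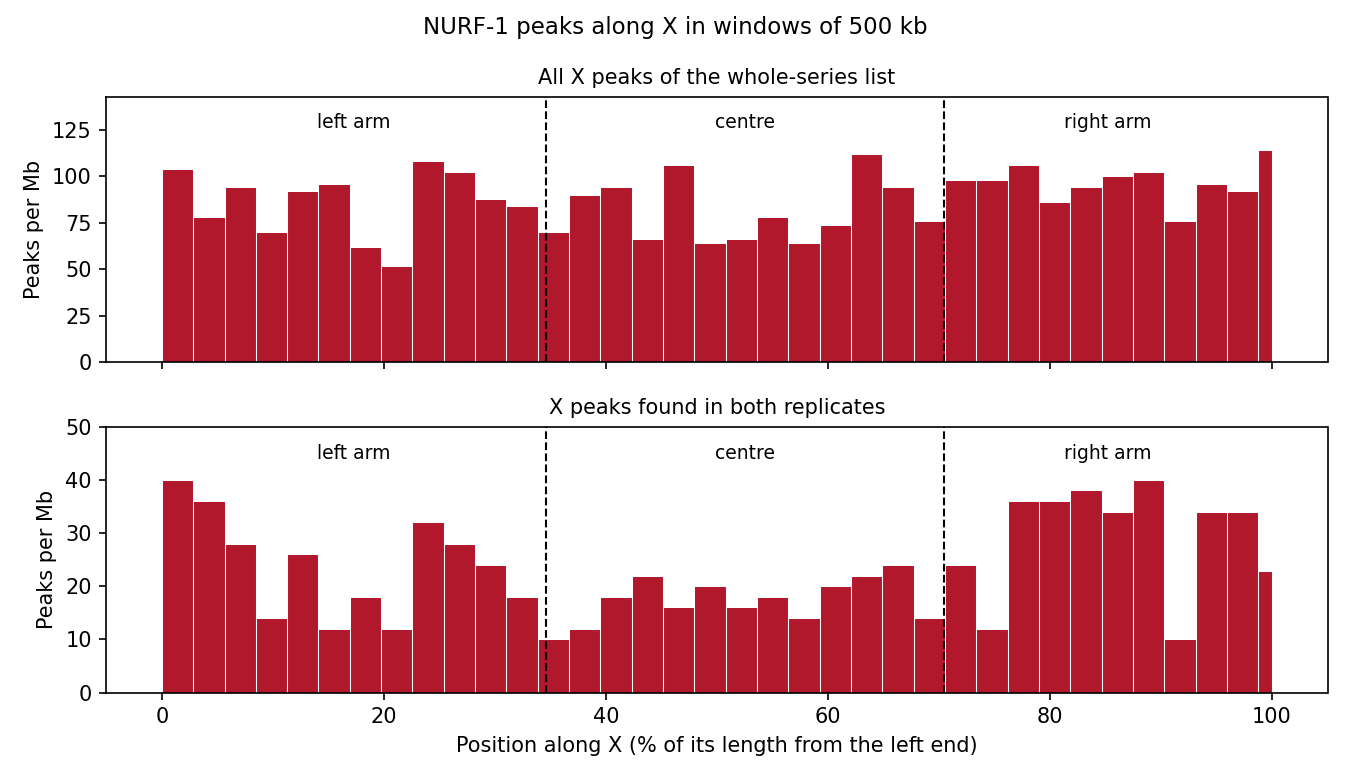
NURF-1 peaks per Mb (y axis) in windows of 500 kb along X (x axis, percent of its length from the left end), for all peaks of the whole-series list (top) and for those found in both replicates (bottom); dashed lines mark the bounds of the centre. All peaks range from 52 to 112 per Mb in the full windows, and those in both replicates are at 17.3 per Mb in the centre, against 23.8 and 29.6 in the left and right arms.

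The replicate lists agreed on the direction and differed in the size. Replicate 1 had 21.3 X peaks per Mb in the centre, against 29.2 in the left arm and 35.1 in the right arm, a centre-to-arm ratio of 0.67. Replicate 2 had 83.4 in the centre, against 87.7 in the left arm and 96.0 in the right arm, a ratio of 0.91. Among the X peaks in the best score group, 26 lay in the centre (4.10 per Mb, 2.68 to 6.01), 30 in the left arm (4.89, 3.30 to 6.98) and 30 in the right arm (5.73, 3.86 to 8.17), and these intervals overlap. Median scores were 13.2 in the centre, 14.4 in the left arm and 15.1 in the right arm, and median widths 341, 341 and 342 bp.

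Over all peaks, X had the lowest density of its centre relative to its arms. On 4 of the 5 autosomes the centre was denser than both arms together, and on III these densities were nearly equal. Arm by arm this did not always hold. The left arm of IV was denser than its centre (129.9 against 121.2 per Mb), and so was the right arm of III (180.8 against 160.9). The autosomal centre was set at the same fractions of length as on X (34.6 to 70.4%), since bounds for the autosomes were not given. The centre-to-arm ratio was 0.90 on X, against 1.18 ± 0.16 on autosomes (SD, n = 5; range 1.00 to 1.39; exact permutation test, p = 0.333). For peaks in both replicates X stood further outside the autosomal range, with 0.66 on X against 1.30 ± 0.11 on autosomes (range 1.16 to 1.46). For the best score group the ratio was 0.78 on X against 1.16 to 1.67 on autosomes. In replicate 1 it was 0.67 on X against 1.18 to 1.30, and in replicate 2 0.91 on X against 1.04 to 1.42. Among peaks below the best-scored 50% of the whole-series list, X lay inside the autosomal range, at 0.95 on X against 0.81 to 1.30 on autosomes, with III and IV below X. Median scores in the centre were 0.91 times those in the arms on X, and 1.15 to 1.59 times on the autosomes.

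**Figure D5:**
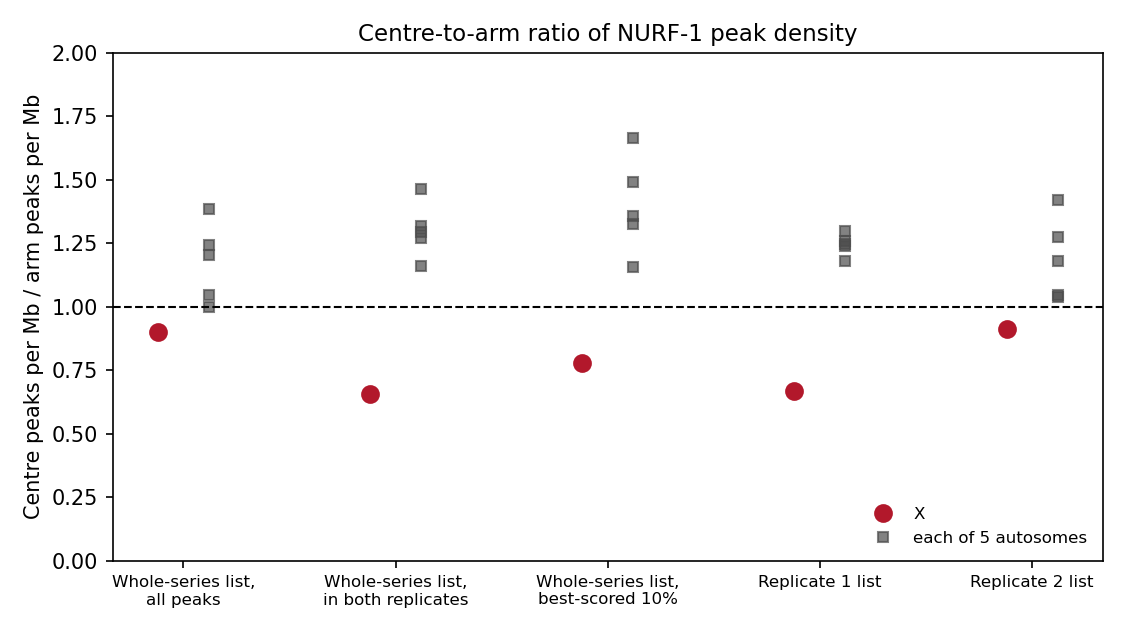
Ratio of centre to arm peak density (y axis) for X (red) and for each of 5 autosomes (grey) in the whole-series list, in its peaks found in both replicates or in the best score group, and in each replicate list; the dashed line marks equal density. X lies below every autosome in these 5 sets, at 0.66 for peaks found in both replicates.

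The share found in replicate 1 was also lowest in the centre of X. There 122 of 515 peaks were found (23.7%, 95% Wilson interval 20.2 to 27.5), against 159 of 525 in the left arm (30.3%, 26.5 to 34.3) and 161 of 501 in the right arm (32.1%, 28.2 to 36.3). At like score the values were 28.6% in the centre, 34.1% in the left arm and 35.8% in the right arm. Without regard to score, the difference between the centre and both arms was -7.50 percentage points on X, and 0.455 to 8.66 on the autosomes. At like score that contrast in sign was mostly absent: the centre was at 28.6% and both arms at 35.0% on X, and the centre was also lower on 4 of the 5 autosomes. There it was at 36.0% against 37.6% in the arms on I, 34.4% against 37.5% on II, 35.2% against 37.0% on IV and 34.2% against 37.6% on V. On III the centre was higher, at 36.5% against 35.3%. In replicate 2 the shares were 95.7% in the centre, 93.5% in the left arm and 94.0% in the right arm.

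At finer scale X had no stretch of 500 kb without peaks. The 35 full windows held 26 to 56 whole-series peaks, with a median of 46. The fullest were X, 11000001 to 11500000 with 56 peaks and X, 4000001 to 4500000 with 54, followed by 53 in each of the windows that begin at bases 8000001 and 13500001. The emptiest lay next to each other in the left arm, X, 3500001 to 4000000 with 26 peaks and X, 3000001 to 3500000 with 31, followed by 32 in those that begin at 8500001 and 10000001. Peaks in both replicates numbered 5 to 20 in a window, and the first window of X and that beginning at 15500001 held 20 each, the highest of those counts and named after they were seen. Counts of the replicate lists were 6 to 29 in replicate 1 and 27 to 57 in replicate 2. Across the 35 windows the replicates' counts had a Spearman's rho of 0.30 and a Pearson's r of 0.27, a description of windows that share their 2 libraries.

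X peaks stood further apart than autosomal ones. The median distance to the nearest other peak was 1872 bp on X, against 978 to 1574 bp on the 5 autosomes. Another peak lay within 1 kb for 577 X peaks (37.4%), against 43.7% of all nuclear peaks and 39.2 to 51.0% on autosomes (exact permutation test, p = 0.333). With peaks at gaps of 500 bp or less joined, 1178 X peaks stayed single (76.4%, against 67.4 to 74.2% on autosomes). Chains of 3 or more held 7.98% of X peaks, against 8.26 to 13.4% on autosomes. The longest chain on X had 7 peaks, at X, 6741920 to 6745406, named after its length was seen. The longest chain of each autosome had 5 to 8 peaks. Peaks with no neighbour within 10 kb made up 12.3% on X, against 4.55 to 12.6% on autosomes, with V the highest of these and above X. A comparison of spacing at equal density was not made.

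Peak-free stretches were long on X but not the longest of the genome. The longest ran over 127.2 kb from base 7824209 to 7951392 and began at the end of the best-scored peak of the centre. The next were 104.8 kb from 10772321 to 10877160 and 103.5 kb from 4027982 to 4131445. Stretches over 50 kb numbered 57 and took up 22.1% of X, against 4.77 to 24.5% of the autosomes, with V the highest; its longest stretch was 193.7 kb. The stretch from 4027982 was free in the whole-series list and in replicate 2. It overlapped 6 peaks of replicate 1, scoring 3.62 to 15.33, beside the 4 whole-series peaks of replicate 1 alone at 4026134 to 4027981 described above.

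The widest X peaks were split differently by the replicates. The peak at X, 109523 to 114303 (4781 bp, whole-series score 43.08) was 1 peak of 4744 bp in replicate 1 (36.76), and replicate 2 broke it into 5, the best of them scoring 10.74. The peak at X, 15807547 to 15811188 (3642 bp, 83.84) was likewise single in replicate 1 (3654 bp, 72.50), and 3 peaks with a best score of 47.86 in replicate 2. The peak at X, 16929283 to 16934034 (4752 bp) went the other way, with 6 peaks with a best score of 37.22 in replicate 1 and 2 with a best score of 266.16 in replicate 2. At the ends of X, a peak of 335 bp began at the first base (79.04, with 76.91 in replicate 1 and 57.62 in replicate 2). A peak of 219 bp ended at base 17718866 (33.99, with 36.54 in replicate 1 and 23.71 in replicate 2).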

How the data were processed

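Per the labels' protocols, ground frozen larvae were fixed with EGS (20 minutes), then with EGS and formaldehyde together (10 minutes), and sonicated. The submitters' processing notes name BWA and the build ce10. Peaks were called with MACS on WormBase WS220, per the file headers and source column. Thresholds, the use of input and the way replicates were combined are not stated in the labels or headers. The authors deposited 3 lists, 1 per ChIP replicate and 1 for the whole series, with a score per peak. The lists give no read counts, so depth is unknown.

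Peaks were analysed in Python 3.11.15 with SciPy 1.17.1, NumPy 2.4.6 and pandas 2.3.3, after tests on simulated peaks, and drawn with matplotlib 3.10.9. A chromosome's length was the last base of its last peak, and overlap meant 1 bp or more. Tied scores shared 1 of 10 score groups. X was set against 5 autosomes by exact permutation over 6 chromosomes; with 2 ChIP lists no test over samples was made. Alternatives were each replicate list alone, peaks found in both, the best-scored 50%, joined peaks, like scores, 50% overlap and other neighbour distances. The peaks named were the 10 best-scored on X, the best of each domain, the 3 best of each class not found in both replicates, the 3 widest and the first and last, with the 3 longest stretches and the 3 fullest and emptiest windows. The members, rules and lists were chosen with earlier results of these data known.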

Additional observations from a re-analysis of the deposited data

How the results depend on the processing

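Over 7 results, 30 alternatives were set with the design and 2 were chosen after seeing the data; 31 of the 32 kept the direction. The exception was the share found in replicate 2, where X minus the autosomal mean was -0.169 percentage points, and 0.685 at like score. In size the results were less stable. Each value was set against a spread chosen for its result, which was 0.13 for the density ratio. By that measure 15 alternatives stayed within the spread, 16 moved beyond it and 1 reversed. The alternatives share peaks and are not independent. The density ratio of 0.68 was 0.52 to 0.70 with either replicate list alone and 0.51 for peaks found in both replicates. It was 0.35 for the best-scored 10% of peaks, a choice made later, and the cause was not tested. With peaks at gaps of 500 bp or less joined it was 0.71. X was then no longer the lowest, at 75.2 per Mb against 74.6 on V. The gap in the share found in replicate 1 (-8.31 percentage points) was -5.98 where 50% of the peak had to be covered, -3.48 at like score and -11.3 in the best-scored 50% of peaks. The median score ratio of 0.78 was 0.72 to 0.75 in the replicate lists and 0.75 for peaks found in both. The median width ratio of 0.98 was 0.87 to 0.99 in the replicate lists. The centre-to-arm ratio on X of 0.90 was 0.67 to 0.91 in the replicate lists and 0.66 for peaks found in both. The gap in the share with a neighbour within 1 kb (-6.89 percentage points) was -5.37 to -6.50 in the replicate lists, -8.42 in the best-scored 50%, -5.20 within 500 bp and -9.25 within 2 kb. No paired analysis was possible because input values were not used here and the 2 ChIP lists are of 1 group. Depth could not be compared between the replicates, since the lists give no read counts.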
